A study of Mus musculus with 8 samples.

Results

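Replacement histone variants are histones that can be made and placed into chromatin outside DNA replication, and H1.0 is the linker histone of the same kind. The 9 genes considered here are H1f0 (H1.0), H2ax (H2A.X, older symbol H2afx), Macroh2a1 and Macroh2a2 (macroH2A, older symbols H2afy and H2afy2), H2az1 and H2az2 (H2A.Z, older symbols H2afz and H2afv), H3f3a and H3f3b (H3.3) and Cenpa (CENP-A). All probe sets that the platform's gene table assigns to 1 of these genes and to no other gene were taken, whatever their values. This gave 8 of the 9 genes, among 18194 genes named on the array, and 12 of 45037 probe sets besides controls. No probe set was named for H1f0, which is not analysed here. Another 8 probe sets are annotated to a member together with other genes, and they are described separately because their signal cannot be assigned to 1 gene.

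Total RNA of 2 mouse cell lines, SThdh111/111 and SThdh7/7, was hybridised to Affymetrix whole-genome expression arrays, with 4 samples of each line. Lines of these names are striatal cells conditionally immortalised with a temperature-sensitive SV40 large T antigen, from embryos of knock-in mice in which both Huntingtin (Htt) alleles carry a long polyglutamine stretch (SThdh111/111) or a short one (SThdh7/7). The series title concerns histone acetylation at genes with reduced expression in models of Huntington's disease, and the arrays show how the transcripts that encode histones compare between the lines. Each group is a single line, so genotype cannot be told apart from other differences between the lines, and the labels do not state whether the 4 samples of a line are separate cultures. The p-values therefore measure only the spread between these samples, which may be technical.

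A nucleosome is built of H2A, H2B, H3 and H4, most of which are made in S phase from clustered genes, and variants replace them at particular places. H2A.X is phosphorylated around DNA breaks, macroH2A carries a large non-histone domain and is enriched in repressed chromatin, H2A.Z flanks transcription start sites, H3.3 is placed at active genes and at telomeres, and CENP-A marks the centromere. H2A.Z, H3.3 and macroH2A are each encoded by a pair of genes, and both H3.3 genes encode the same protein.

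The promoters of the members whose probe sets differed most between the lines, Cenpa and Macroh2a2, are shown with those of the H2A.Z pair. At their brightest probe sets, though not in the mean over probe sets, H2az1 and H2az2 were close to each other in their difference. The promoters come from RefSeq on build GRCm38.p6, which holds an entry for 8 of the 9 genes, all except H2ax. Each run covers 250 bases before and 50 bases after the start site, 5′ to 3′ on the strand of the gene. Capitals mark CCAAT (the CCAAT box) and TTTGAA (the cell cycle homology region, CHR) on either strand, so that a match on the other strand reads ATTGG or TTCAAA. The windows are chr5:30666636-30666935 (+ strand) for Cenpa, chr10:61783815-61784114 (- strand) for Macroh2a2, chr3:137864237-137864536 (+ strand) for H2az1 and chr11:6444394-6444693 (- strand) for H2az2.
Cenpa: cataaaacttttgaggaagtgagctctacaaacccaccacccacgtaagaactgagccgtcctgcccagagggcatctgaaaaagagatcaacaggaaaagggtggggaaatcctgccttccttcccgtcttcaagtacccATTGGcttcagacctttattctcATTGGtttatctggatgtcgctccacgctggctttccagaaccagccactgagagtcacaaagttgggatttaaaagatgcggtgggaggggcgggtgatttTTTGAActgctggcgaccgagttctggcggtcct
Macroh2a2: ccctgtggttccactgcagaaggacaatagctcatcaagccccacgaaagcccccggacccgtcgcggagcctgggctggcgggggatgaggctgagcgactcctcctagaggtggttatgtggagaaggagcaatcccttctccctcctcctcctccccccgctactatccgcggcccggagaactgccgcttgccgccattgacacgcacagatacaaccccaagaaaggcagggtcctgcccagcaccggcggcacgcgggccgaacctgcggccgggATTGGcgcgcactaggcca
H2az1: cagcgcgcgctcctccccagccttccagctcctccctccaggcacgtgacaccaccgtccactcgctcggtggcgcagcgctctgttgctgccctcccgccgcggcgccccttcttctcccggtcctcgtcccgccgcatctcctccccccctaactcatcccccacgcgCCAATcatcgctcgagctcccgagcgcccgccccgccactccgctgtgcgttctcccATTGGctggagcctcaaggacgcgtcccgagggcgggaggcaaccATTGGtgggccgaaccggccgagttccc
H2az2: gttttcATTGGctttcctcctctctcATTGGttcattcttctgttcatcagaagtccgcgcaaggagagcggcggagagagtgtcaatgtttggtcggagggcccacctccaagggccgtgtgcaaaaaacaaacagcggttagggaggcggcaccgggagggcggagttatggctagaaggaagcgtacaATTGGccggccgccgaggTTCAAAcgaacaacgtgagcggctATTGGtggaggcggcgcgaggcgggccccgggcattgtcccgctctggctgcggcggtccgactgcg
The Cenpa window held 2 CCAAT boxes, beginning 109 and 86 bases before the start site, and 1 CHR at base 17 after it. Arrangements of CCAAT boxes and a CHR are known from many genes transcribed in G2 and mitosis. The Macroh2a2 window held 1 CCAAT match, at base 32 after the start site. The H2az1 window held 3, beginning 80 and 23 bases before the start site and at base 23 after it. The H2az2 window held 4, all before the start site, and also a CHR. No matches of the 2 motifs overlapped. Among 32851 promoter windows of the same length 37.4% held CCAAT and 17.9% held TTTGAA, so single matches are common. A match is a run of letters and was not tested as a binding site.

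A filter on dim probe sets, which asked for a log2 of 4 or more in 4 or more of the 8 arrays, kept 41409. Of these 22.4% passed an adjusted p of 0.05 in limma with Benjamini-Hochberg adjustment, 9.87% higher and 12.6% lower in SThdh111/111. The lines did not overlap at 25.1% of them. The median difference over the kept probe sets was -0.12 on the log2 scale and 0.037 once the arrays were centred on their medians, so differences of this size depend on the scaling. That centring also moved the share of higher ones among the called probe sets to 60.5%, against 44% as deposited. SThdh7/7 samples 1 and 2 stood apart, with median intensities of 173.9 and 174.0, against 136.2 to 147.0 on the other 6 arrays, and member results are also given without them where a call changes. The highest 95th percentile of the bacterial control probe sets, a log2 intensity of 7.02, was taken as a floor. Its value per array was 72.0 to 77.5 (intensity) in SThdh111/111 and 98.7 to 130.0 in SThdh7/7. Of the 4 Htt probe sets 1 was lower in SThdh111/111 and 3 were not called, the brightest at a difference of -0.42 ± 0.16 (SE; limma adjusted p = 0.084). Of 8 measured striatal neuron markers 3 were above the floor on all SThdh111/111 arrays and 2 on all SThdh7/7 arrays, and 2 of the 8 were higher and 1 lower in SThdh111/111. Ppp1r1b (DARPP-32) and the dopamine receptor gene Drd1 lay below it on all 8 arrays, while Foxp1 (higher, 0.29) and Rgs9 (lower, -0.71) lay above it on all 8. Penk (proenkephalin) was above it on 4 of 4 SThdh111/111 arrays and 1 of 4 SThdh7/7 arrays and was higher by 2.96 (limma adjusted p = 2.5e-05). Of 8 fibroblast and mesenchymal markers 7 were above it on all SThdh111/111 arrays and 5 on all SThdh7/7 arrays. Of these 8, 6 were higher and 0 lower in SThdh111/111, with summed intensities of 92987 to 108370 in SThdh111/111 and 22913 to 24178 in SThdh7/7, and none was below the floor on all arrays. Their part in the results was not tested.

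All 12 member probe sets were kept. Of these 2 were higher, 2 lower and 8 not called, beside the background of 22.4% given above, and nothing particular to the members is read from this count. Of the 12, 8 were above the floor on all 8 arrays. With 1 probe set per gene, the brightest, 1 of 8 genes rose and 2 fell, against a background of 29% of 17389 named genes called, 13.1% higher and 15.9% lower. The median difference of the 8 genes, which include H3f3a below the floor on every array, was 0.21, beside -0.089 over all named genes. Such a median depends on brightness. It was -0.12 over all kept probe sets and 0.0097 over the 6651 with a mean log2 of at least 10. Of the 12 probe sets 7 carry the endings _a_at or _x_at, which mark designs that may match several transcripts, and 3 of the 4 called ones are among them.

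**Figure D1:**
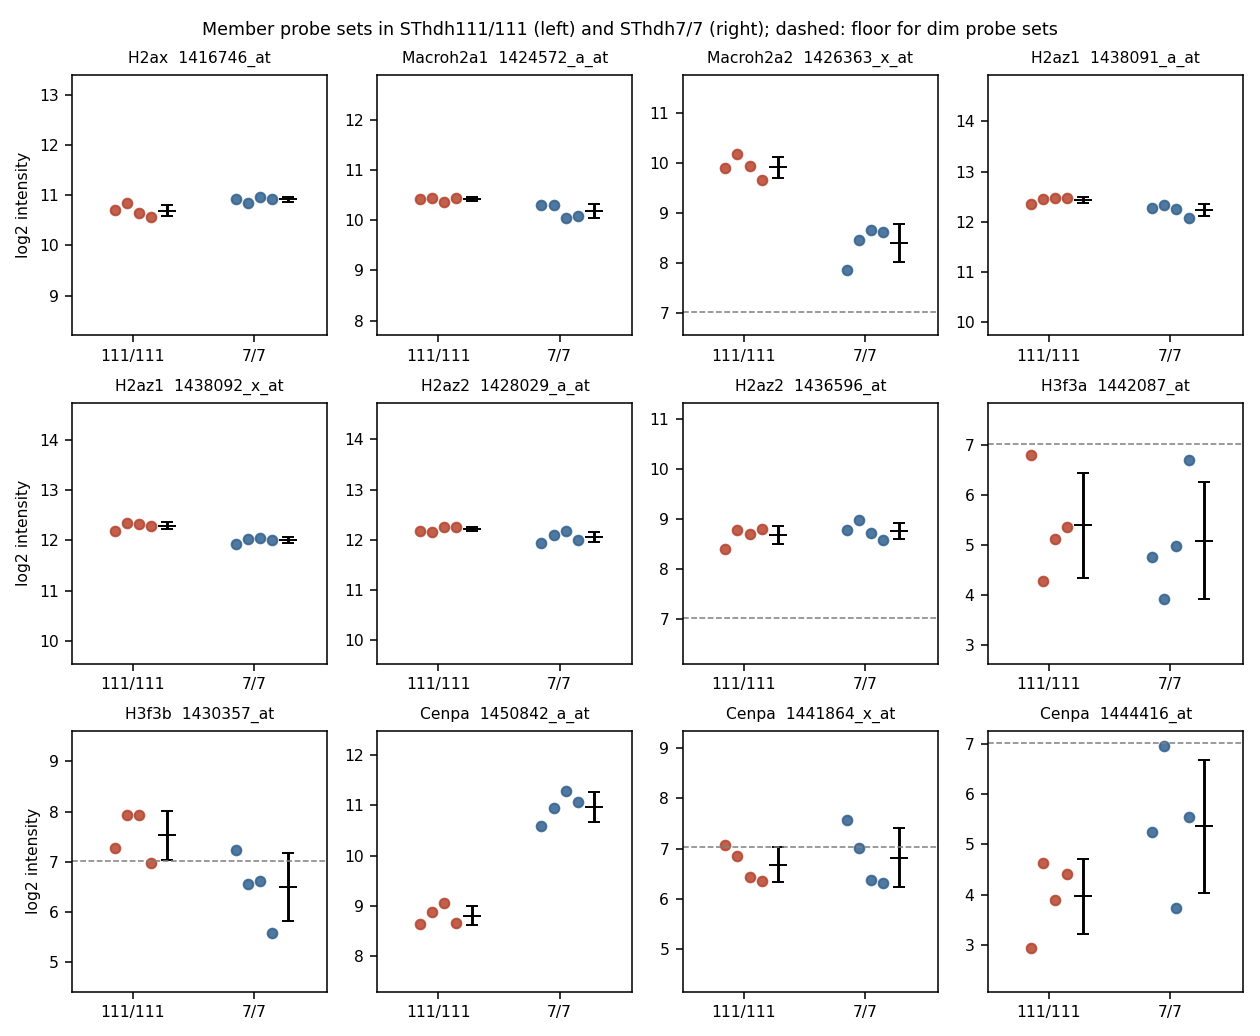
Log2 intensity (y axis, each panel spanning the same range) of the 12 member probe sets on the 4 SThdh111/111 arrays (left, red) and the 4 SThdh7/7 arrays (right, blue); the black mark and bar are the mean and SD, and the dashed line is the floor of 7.02. Cenpa 1450842_a_at and Macroh2a2 1426363_x_at differ by more than 1 log2 unit between the line means, in opposite directions, while H3f3a 1442087_at and Cenpa 1444416_at lie below the floor on every array.

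Cenpa encodes the H3 variant that carries the identity of the centromere and is loaded after mitosis. At its brightest probe set (1450842_a_at) log2 intensities were 8.63, 8.88, 9.05 and 8.66 in SThdh111/111, against 10.58, 10.95, 11.29 and 11.07 in SThdh7/7. Every SThdh111/111 array was more than 1 log2 unit below every SThdh7/7 array. The means were 8.80 ± 0.20 and 10.97 ± 0.30 (SD, n = 4 each), and Cenpa fell by 2.17 on the log2 scale (SE 0.14; limma adjusted p = 8.0e-08), a level 4.50-fold lower in SThdh111/111. Only 1.47% of the kept probe sets showed a larger fitted fall. The other Cenpa probe sets were dim and not called. The probe set 1441864_x_at was above the floor on 1 of 4 arrays of each line and differed by -0.14 ± 0.39 (SE; limma adjusted p = 0.86). The probe set 1444416_at lay below the floor on all 8 arrays, so no fold is given for it. The Cenpa call thus rests on 1 of 3 probe sets, one that may match several transcripts.

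Transcripts of genes whose products sit on CENP-A chromatin were measured beside it. Of 14 such centromere partners 12 fell and 0 rose, with a median difference of -1.06. Over all named genes 15.9% were lower and 13.1% higher, the shares beside which this and the later list counts stand. Cenpt, a DNA-binding component that links the centromere to the outer kinetochore, fell by 1.47 on the log2 scale (limma adjusted p = 8.0e-09), to 10.01 in SThdh111/111, against 11.48 in SThdh7/7. Cenpq, of the same inner kinetochore network, fell by 1.02 on the log2 scale (limma adjusted p = 1.1e-05). Cenpi was above the floor on 0 of 4 SThdh111/111 arrays and on 4 of 4 SThdh7/7 arrays, and was at least 3.44-fold lower in SThdh111/111 (limma adjusted p = 1.3e-06). The pair without a call was Cenpb, which binds a DNA motif in centromeric repeats (difference 0.27), and Cenpl (difference -1.10, with 0 of 4 SThdh111/111 arrays above the floor).

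Markers of cycling cells moved with Cenpa. Of 21 measured proliferation markers 20 fell and 0 rose, with a median difference of -1.69 (log2), and their summed intensity was 21182 to 22703 in SThdh111/111 and 55350 to 60096 in SThdh7/7, with no marker below the floor on all arrays. Rrm2 of ribonucleotide reductase and the replicative helicase subunits Mcm3 and Mcm2 fell by 1.86, 1.85 and 1.62 on the log2 scale (limma adjusted p = 1.2e-10, 4.0e-10 and 4.0e-10). The difference of Cenpa, -2.17, lay within the span of the markers above the floor on all 8 arrays, from -2.27 for Birc5 (survivin, of the chromosomal passenger complex) to -0.52 for cyclin B2 (Ccnb2). How much of the fall of Cenpa goes with the share of cycling cells was not tested. In RNA from whole cultures, fewer cells of a kind and less RNA per cell cannot be told apart.

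**Figure D2:**
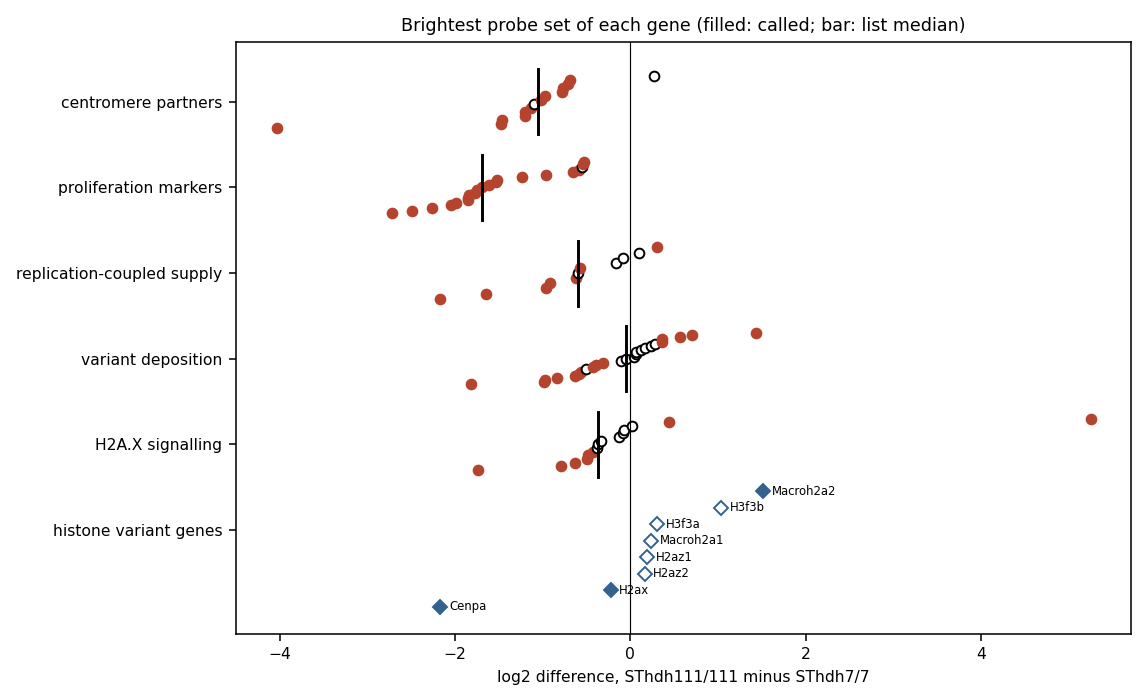
Log2 difference (x axis, SThdh111/111 minus SThdh7/7) of the brightest probe set of each gene in 5 lists (circles, filled where called, with the list median as a bar) and of the 8 histone variant genes (diamonds). Cenpa, at -2.17, sits among the centromere partners and proliferation markers, nearly all of which are negative, while Macroh2a2, at 1.51, is the highest of the variants. The Cenpi point near -4 and the Eya1 point near 5 are fitted values of genes that lay below the floor in 1 line.

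Macroh2a2 rose most among the variants. MacroH2A.2 is the less widely expressed of the macroH2A pair. At 1426363_x_at log2 intensities were 9.89, 10.17, 9.94 and 9.66 in SThdh111/111, against 7.86, 8.46, 8.66 and 8.62 in SThdh7/7. The lines did not overlap, and within SThdh7/7 sample 1 was the lowest. The means were 9.91 ± 0.21 and 8.40 ± 0.37 (SD, n = 4 each), a difference of 1.51 ± 0.18 (SE; limma adjusted p = 2.0e-05) or 2.85-fold, and 3.43% of the kept probe sets showed a larger fitted rise. The difference was 1.27 without SThdh7/7 samples 1 and 2 (limma adjusted p = 7.1e-05). Without probe sets that may match several transcripts no Macroh2a2 probe set was left. A further probe set, 1421612_a_at, is annotated to Macroh2a2 and Macroh2a3 together. It read 10.18, 10.09, 10.21 and 10.22 in SThdh111/111, against 9.27, 9.29, 9.10 and 9.06 in SThdh7/7, and rose by 1.00 ± 0.09 (SE; limma adjusted p = 2.9e-06).

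Macroh2a1, whose product is the widely expressed macroH2A, differed far less. Its probe set 1424572_a_at read 10.42, 10.45, 10.37 and 10.44 in SThdh111/111, against 10.31, 10.30, 10.05 and 10.09 in SThdh7/7. The lines did not overlap but the difference of 0.23 ± 0.09 (SE) was not called (limma adjusted p = 0.069), and the 2 SThdh7/7 values nearest to SThdh111/111 were those of samples 1 and 2. Without these 2 samples it was 0.35 and called (limma adjusted p = 0.0094). It was also called without sample 1 alone (0.27, limma adjusted p = 0.044), without sample 2 alone (0.27, limma adjusted p = 0.049) and after centring (0.39, limma adjusted p = 0.021). Within each array, the log2 value of Macroh2a2 minus that of Macroh2a1 was -0.51 ± 0.21 in SThdh111/111 and -1.79 ± 0.48 in SThdh7/7 (SD, n = 4 each). The difference between the lines was 1.28 (95% interval 0.61 to 2.16 from the exact permutation test; exact p = 0.029, two-sided, the smallest that 70 splits allow). All 4 SThdh111/111 arrays lay above all 4 SThdh7/7 arrays. Adjusted over the 3 pairs of paralogues this exact p was 0.086, the lowest that 1 fully separated pair can reach unless another pair is also low, so the design and not the size of the difference set this limit.

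The H2A.Z genes differed little between the lines, and H2az1 was called at 1 of its 2 probe sets. At 1438092_x_at the linear intensity of H2az1 was 4692, 5243, 5114 and 4992 in SThdh111/111, against 3873, 4183, 4242 and 4097 in SThdh7/7. Every SThdh111/111 array was above every SThdh7/7 array, a rise of 0.29 ± 0.06 on the log2 scale (SE; limma adjusted p = 0.0032). This call was lost without the intensity trend of the fit (limma adjusted p = 0.079). At the brighter 1438091_a_at the log2 intensities were 12.34, 12.44, 12.46 and 12.46 in SThdh111/111, against 12.27, 12.34, 12.25 and 12.07 in SThdh7/7. There the lines were separated by less than 0.1 log2 units, and the difference of 0.19 ± 0.07 (SE) was not called (limma adjusted p = 0.058). It was called without SThdh7/7 samples 1 and 2 (0.27, limma adjusted p = 0.023), without sample 2 alone (0.23, limma adjusted p = 0.038) and after centring (0.35, limma adjusted p = 0.046), and was 0.075 after quantile normalization. It was also called with the filter at a log2 of 6 or 8 (limma adjusted p = 0.046 and 0.03). The mean over the H2az1 probe sets was higher by 0.24 and called (limma adjusted p = 0.0059). Of 2 further probe sets annotated to H2az1 and Gm8203 together, 1416415_a_at was higher by 0.23 ± 0.06 (SE; limma adjusted p = 0.019), a call that was lost after centring, without the trend and without SThdh7/7 samples 1 and 2, and a direction that turned after quantile normalization (-0.052), and 1456032_x_at was not called (0.41 ± 0.18, SE; limma adjusted p = 0.14). The value of 1456032_x_at rested on SThdh7/7 samples: it was 0.21 without sample 2 (limma adjusted p = 0.35), 0.015 without samples 1 and 2 (limma adjusted p = 0.95), and 0.55 and called without sample 3 (limma adjusted p = 0.046).

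H2az2 encodes the second H2A.Z protein. Its brighter probe set 1428029_a_at read 12.18, 12.16, 12.25 and 12.26 in SThdh111/111, against 11.94, 12.10, 12.17 and 11.99 in SThdh7/7. The lines overlapped, and the difference was 0.16 ± 0.07 (SE; limma adjusted p = 0.10). It passed only without SThdh7/7 sample 3 (0.20, limma adjusted p = 0.050). The other, 1436596_at, ranged from 8.41 to 8.80 in SThdh111/111 and from 8.58 to 8.98 in SThdh7/7 and differed by -0.090 ± 0.14 (SE; limma adjusted p = 0.74). Within arrays the H2az1 minus H2az2 value was 0.21 ± 0.05 in SThdh111/111 and 0.18 ± 0.12 in SThdh7/7 (SD, n = 4 each). The lines differed by 0.032 in it (95% interval -0.17 to 0.19; exact permutation p = 0.60, adjusted over the 3 pairs 0.60). An unequal change of the H2A.Z pair larger than about that interval was thus not seen at these probe sets, but with the mean over each gene's probe sets the value was 0.21 and passed (adjusted exact permutation p = 0.043).

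The H3.3 genes could hardly be read one by one. The single probe set of H3f3a, 1442087_at, lay below the floor on all 8 arrays, between 4.29 and 6.80 in SThdh111/111 and between 3.92 and 6.69 in SThdh7/7. That of H3f3b, 1430357_at, read 7.27, 7.93, 7.93 and 6.97 in SThdh111/111, against 7.23, 6.56, 6.61 and 5.58 in SThdh7/7. It was above the floor on 3 of 4 SThdh111/111 arrays and 1 of 4 SThdh7/7 arrays, the lines overlapped, and the fitted difference of 1.03 ± 0.40 (SE) was not called (limma adjusted p = 0.085). It was called after centring of the arrays (1.18), after quantile normalization (1.19), without SThdh7/7 sample 1 (1.28) and without SThdh7/7 samples 1 and 2 (1.43), with limma adjusted p of 0.041, 0.035, 0.038 and 0.037. The H3f3a minus H3f3b value within arrays differed by -0.73 between the lines (95% interval -4.76 to 2.16; exact permutation p = 0.51, adjusted over the 3 pairs 0.60). That interval is too wide to tell like from unlike changes. With H3f3a below the floor on all 8 arrays, the test could not compare these genes.

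A further 5 probe sets are annotated to H3f3a, H3f3b, H3f3c and 3 other loci together, and say nothing of which of these contributed. All 5 were bright, did not overlap between the lines and were higher in SThdh111/111. Over all kept probe sets 25.1% did not overlap and 9.87% were higher. Because the 5 carry the same annotation, they are repeated readings of 1 group of genes and not 5 separate results. At 1423262_a_at the log2 intensities were 13.52, 13.55, 13.61 and 13.58 in SThdh111/111, against 12.87, 12.92, 13.25 and 13.24 in SThdh7/7, where samples 1 and 2 were the lowest. This was the largest of the 5 differences, 0.49 ± 0.09 (SE; limma adjusted p = 7.7e-04), and it was 0.32 without samples 1 and 2. The smallest was 0.27 ± 0.06 (SE) at 1434127_a_at (limma adjusted p = 0.0063). At 1455725_a_at the 4 SThdh111/111 values lay between 14.12 and 14.22 and the 4 SThdh7/7 values between 13.78 and 13.89, a difference of 0.34 ± 0.06 (SE; limma adjusted p = 4.7e-04). After quantile normalization, which forces the bright end of all arrays to the same values, the differences of 1434127_a_at and 1455725_a_at were 0.046 and 0.033 and were no longer called, while the other 3 were. The call at 1434127_a_at was also lost after centring (0.43, limma adjusted p = 0.090) and without the trend (limma adjusted p = 0.11).

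**Figure D3:**
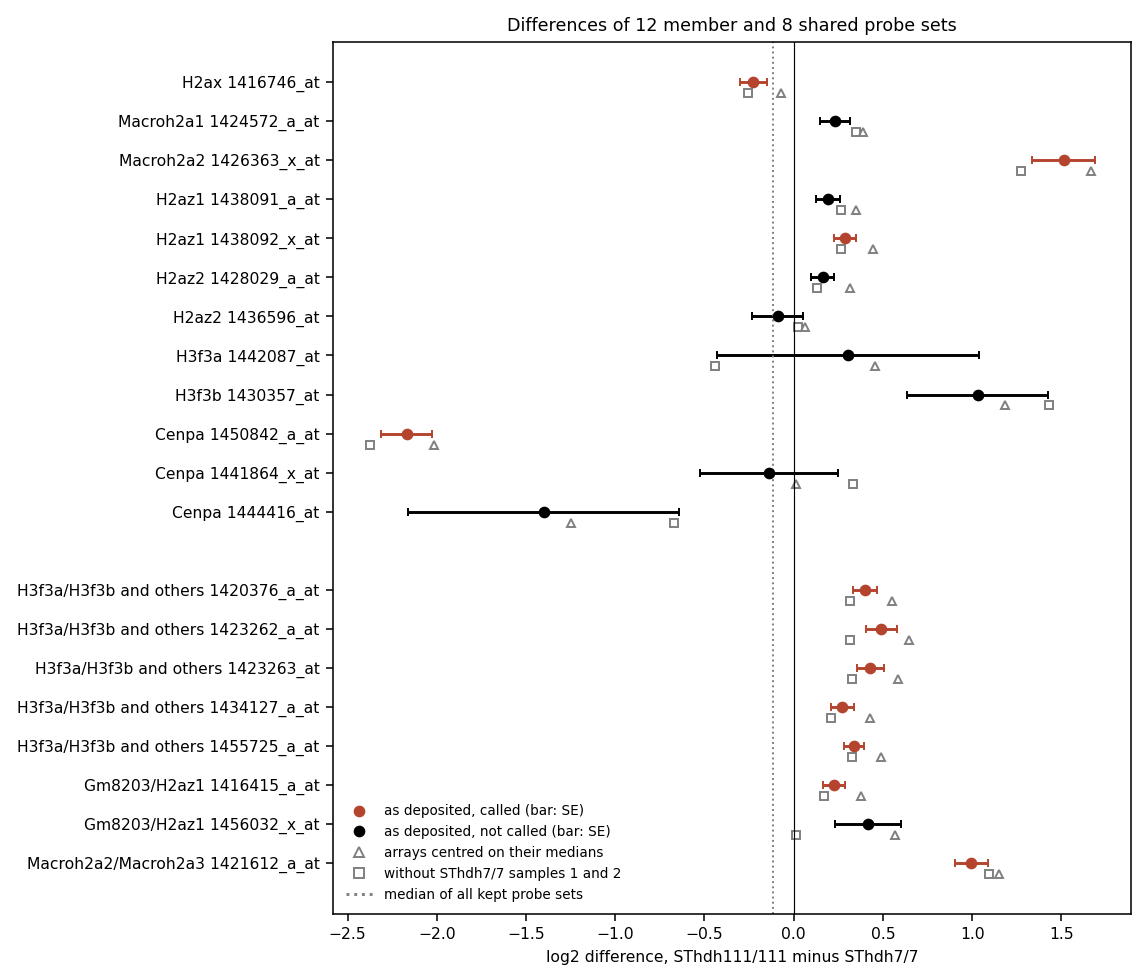
Log2 difference (x axis, SThdh111/111 minus SThdh7/7) of the 12 member probe sets (upper block) and of the 8 probe sets shared with other genes (lower block), as deposited with its SE (filled circles, red where called), after centring of arrays on their medians (triangles) and without SThdh7/7 samples 1 and 2 (squares). Apart from Cenpa at -2.17 and Macroh2a2 at 1.51, called differences as deposited lay between -0.23 and 1.00, and the dotted line marks the median of all kept probe sets, -0.12.

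H2ax was lower by a margin near the limits of the data. Its only probe set, 1416746_at, read 10.71, 10.84, 10.64 and 10.57 in SThdh111/111, against 10.93, 10.85, 10.96 and 10.93 in SThdh7/7. The lines were separated by 0.01 log2 units, between SThdh111/111 sample 2 and SThdh7/7 sample 2. H2ax fell by 0.23 on the log2 scale (SE 0.08; limma adjusted p = 0.047). Leaving out 1 sample at a time, the call held only without SThdh111/111 sample 2 or SThdh7/7 sample 2 (limma adjusted p = 0.026 and 0.049), and the other 6 fits gave limma adjusted p of 0.081 to 0.14. After centring of the arrays the difference was -0.073 (limma adjusted p = 0.78). It was also lost without SThdh7/7 samples 1 and 2 (adjusted p = 0.069) and with the sample number as a block (adjusted p = 0.085).

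Of 15 genes that modify, read or act on phosphorylated H2A.X, 2 rose and 6 fell, with a median difference of -0.37, and 2 were lower after centring. The phosphatase and transcription cofactor gene Eya1, which removes a tyrosine phosphate of H2A.X, was at 10.78 in SThdh111/111 and above the floor on 0 of 4 SThdh7/7 arrays, a rise of at least 13.5-fold (limma adjusted p = 1.5e-09). Eya3, also in this list, went the other way and fell by 0.50 on the log2 scale (limma adjusted p = 0.0076). It was above the floor on 4 of 4 arrays of each line, at a probe set that may match several transcripts. Trp53bp1 (53BP1), a reader of the damaged chromatin, rose by 0.44 ± 0.08 (SE; limma adjusted p = 0.0013), a call lost when its probe sets were averaged (0.25) and without probe sets that may match several transcripts (limma adjusted p = 0.074). The ubiquitin ligase gene Rnf168 and Brca1 fell by 0.79 and 1.73 on the log2 scale (limma adjusted p = 4.4e-05 and 2.0e-04), and Brca1 was above the floor on 2 of 4 SThdh111/111 arrays. Mre11a, a nuclease of the break sensor complex, fell by 0.63 on the log2 scale, a call lost after centring (limma adjusted p = 0.073) and without probe sets that may match several transcripts (-0.18).

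Chaperones and remodellers that place or remove the variants moved both ways. Of 25 measured genes 5 rose and 10 fell, with a median difference of -0.049, and 5 were lower after centring. For H3.3, Daxx, its chaperone at heterochromatin, rose by 0.70 ± 0.07 (SE; limma adjusted p = 7.3e-06) and Cabin1, of the HIRA complex, by 0.57 ± 0.12 (SE; limma adjusted p = 0.0028), a call lost when its probe sets were averaged (limma adjusted p = 0.13). Hira itself was not called (-0.50 ± 0.28, SE; limma adjusted p = 0.25). Ubn1, of the same complex, was called lower as deposited (-0.32, limma adjusted p = 0.011), and Ubn2 was not called. Dek, another H3.3 chaperone, fell by 0.63 on the log2 scale (limma adjusted p = 9.3e-06). For H2A.Z, Anp32e, which removes it from nucleosomes, fell by 0.97 on the log2 scale (limma adjusted p = 2.2e-06), and Znhit1, of the SRCAP complex that deposits it, rose by 0.36 ± 0.07 (SE), a call lost without probe sets that may match several transcripts (0.16). Other listed genes of the SRCAP complex went both ways as deposited. Ruvbl2 and Yeats4 were called lower (-0.59 and -0.39, limma adjusted p = 1.7e-04 and 0.011). Srcap was called higher (1.43, limma adjusted p = 0.0096), above the floor on 4 of 4 SThdh111/111 arrays and 2 of 4 SThdh7/7 arrays. Ruvbl1, Vps72, Dmap1 and Actr6 were not called. The H2A-H2B chaperone gene Nap1l1 fell by 0.83 on the log2 scale (limma adjusted p = 1.2e-07). For CENP-A, 2 genes of the Mis18 complex that prepares the centromere, Mis18a and Oip5, were called lower (limma adjusted p = 3.4e-04 and 0.032). The difference of Mis18a was -0.99, and Oip5 was above the floor on 1 of 4 SThdh111/111 arrays and 4 of 4 SThdh7/7 arrays, so its size is not given.

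Replication-coupled histone supply is the counterpart of the replacement pathway. Of 11 measured genes of it 6 fell, 1 rose and 4 were not called, with a median difference of -0.60, and 4 were lower after centring. Chaf1b, of the CAF-1 complex that loads H3 and H4 behind the replication fork, fell by 2.17 on the log2 scale (limma adjusted p = 6.4e-08). Asf1b, the H3-H4 chaperone of cycling cells, and Slbp, which binds the stem-loop of replication-dependent histone mRNA, fell by 1.65 and 0.92 on the log2 scale (limma adjusted p = 5.6e-05 and 5.1e-06), but Slbp was not called when its probe sets were averaged (-0.57). Lsm10, of the U7 particle that trims those mRNAs, rose by 0.30 ± 0.08 (SE; limma adjusted p = 0.016), a call lost without the trend and without SThdh111/111 sample 1 or 4 (limma adjusted p = 0.12, 0.056 and 0.056). The proliferation markers given above moved with this list too.

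Of 34 listed core and linker histone genes outside the members 9 were measured. Among these 2 rose and 1 fell, beside 13.1% higher and 15.9% lower over all named genes, and nothing particular is read from this count. In each line 4 of the 9 were above the floor on all 4 arrays. The median difference, 0.39, was the value of a gene above the floor on 0 of 4 SThdh111/111 arrays and 1 of 4 SThdh7/7 arrays. The linker histone gene H1f2 rose by 2.10 ± 0.10 (SE; limma adjusted p = 2.2e-09) at its brightest of 3 probe sets, to 13.18 in SThdh111/111, against 11.09 in SThdh7/7. At its only probe set without an ending for several transcripts the difference was -0.14 (limma adjusted p = 0.78). H2aw, a histone H2A gene (older symbol Hist3h2a), rose by 1.27 ± 0.11 (SE; limma adjusted p = 8.2e-07). H1f10 (H1X) fell by 0.72 on the log2 scale (limma adjusted p = 0.016), a call lost after centring (limma adjusted p = 0.10), without the trend and without SThdh111/111 sample 4 or SThdh7/7 sample 4. Transcripts of replication-dependent histone genes end without a poly(A) tail, so a labelling that starts from poly(A) reads them poorly; the labels do not describe the primer used.

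The genes whose log2 values ran most closely with a member over the 8 arrays were named as a description, among brightest probe sets with a mean of at least 8; with 2 lines of 4 arrays such correlations mostly follow the difference between the lines, and the arrays share it. Those nearest to Cenpa were Pmepa1, Skil and Gltp (Pearson r of 0.997, 0.996 and 0.996). Selenos, Trio and Tbc1d20 were nearest to Macroh2a2 (r of 0.992, 0.990 and 0.989) and Fam3a, Kbtbd11 and Dcps to H2az1 (r of 0.991, 0.970 and 0.963). For H2ax they were Rbck1, Cbx2 and Afg1l (r of 0.980, 0.978 and 0.976), for Macroh2a1 Zfp830, Rab11b and Kmt2a (r of 0.972, 0.971 and 0.971) and for H2az2 Abhd16a, Snrpc and Rps26 (r of 0.961, 0.960 and 0.960). Those of H3f3a and H3f3b, r of 0.902 to 0.926 and 0.939 to 0.981, rest on probe sets that were below the floor on 8 and on 4 of the 8 arrays, and are not named.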

How the data were processed

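Per the labels' protocols, RNA was purified with Tri-reagent followed by RNeasy columns, then biotin-labelled. The deposited table holds 1 linear intensity per probe set and array. GCRMA is the only tool in the submitters' processing notes, but the intensity values deposited do not have its form: leaving off 2% of values at either end, each of the 8 arrays had a mean of 500.0, as in MAS5 or GCOS signals, so the tool is not settled.

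Log2 values were compared (SThdh111/111 minus SThdh7/7) in limma 3.58.1 under R 4.3.3 (lmFit, then eBayes with its trend option), adjusted over all 41409 kept probe sets, of 45037 besides 64 controls. Arrays stayed scaled as deposited. The fit was tested on simulated data. Symbols were updated by Entrez number to GRCm38.p6; 34945 probe sets had 1 gene, 932 several and 9160 none. The floor came from 27 bacterial control probe sets. Paralogues were compared by exact permutation over 70 splits. Members and lists were chosen with earlier results of these data known. Named genes were all members, of each list up to 3 called genes in each direction by adjusted p whose higher line lay above the floor on all 4 arrays, and the 3 genes most correlated with each member. Birc5, Ccnb2, Cenpb, Cenpl, Eya3, Hira, Mis18a, Oip5 and the striatal markers were named after their values were seen. So were Ubn1, Ubn2 and the genes of the SRCAP complex other than Znhit1. Alternatives were other filters (log2 of 6 or 8, or none), quantile normalization, median centring, no trend, log2 of the intensity plus 16, a block for the sample number, fits without 1 or 2 of the samples, and other choices of a gene's probe set; the filter at 8 was chosen after seeing the data. Same-numbered samples of the lines did not deviate together (correlations of -0.014 to 0.009), so no effect shared by number was seen. The labels do not state whether same-numbered samples were prepared together. Figures were drawn with matplotlib 3.10.9.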

Additional observations from a re-analysis of the deposited data

Results flagged for a closer look

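Of 40 sets of 4 arrays (12 member and 8 shared probe sets in each line) 2 held a value far from the other 3 by Dixon's criterion, which chance gives in about 1 in 20 sets. SThdh111/111 sample 1 read 12.34 at H2az1 1438091_a_at, below the other SThdh111/111 arrays, and 11.97 at 1456032_x_at, shared by H2az1 and Gm8203, where the others read 12.27 to 12.29.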

How the results depend on the processing

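As deposited 2 member probe sets were higher and 2 lower. The number higher was 5 after centring of arrays on their medians and without SThdh7/7 samples 1 and 2, 4 with the filter at a log2 of 8, and 1 without the intensity trend, where H2az1 1438092_x_at was lost. It was 2 to 4 with 1 sample left out, and 4 without SThdh7/7 sample 1 or 2. The number lower was 1 with no filter, after centring, without the trend, without SThdh7/7 samples 1 and 2 and with the replicate block, and 1 to 2 with 1 sample left out, each time through H2ax. At the level of genes 1 was higher as deposited, 4 after centring and without SThdh7/7 samples 1 and 2, 3 with the filter at 8 and when the probe sets of a gene were averaged, 2 with the filter at 6 and after quantile normalization, 0 when probe sets that may match several transcripts were left out, and 1 to 3 with 1 sample left out. The number of genes lower was 1 with no filter, after centring, without the trend, with the replicate block, without SThdh7/7 samples 1 and 2 and without probe sets that may match several transcripts (in that last setting H2ax stayed and Cenpa, then read from a probe set below the floor on all 8 arrays, did not, adjusted p = 0.23), and 1 to 2 with 1 sample left out. The sample number as a block, for which the labels state no pairing, changed no other call of a member.

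Called differences at Cenpa 1450842_a_at (-2.38 to -2.02) and Macroh2a2 1426363_x_at (1.27 to 1.67) kept direction and call in every alternative run at the level of probe sets. The following directions turned. H2az2 1436596_at was 0.064 after centring and 0.026 without SThdh7/7 samples 1 and 2, and H2az2 as a gene was -0.090 without probe sets that may match several transcripts. H3f3a was -0.17 to 0.84 with 1 sample left out and -0.44 without SThdh7/7 samples 1 and 2. Cenpa 1441864_x_at was 0.0051 after quantile normalization, 0.015 after centring, -0.31 to 0.11 with 1 sample left out and 0.33 without SThdh7/7 samples 1 and 2. The shared probe set 1416415_a_at was -0.052 after quantile normalization, and H1f2 was -0.14 without probe sets that may match several transcripts. The pair H2az1 minus H2az2 was 0.21 with the mean over probe sets and -0.0023 to 0.083 with 1 sample left out, turning to -0.0011 and -0.0023 without SThdh7/7 sample 3 or 4. The pair H3f3a minus H3f3b ranged from -1.28 to 0.12 with 1 sample left out, the highest without SThdh7/7 sample 4, and was -1.87 without SThdh7/7 samples 1 and 2. Macroh2a2 minus Macroh2a1 was 1.06 to 1.41 and 0.92 in these fits. With the mean over probe sets the last pair kept its value of 1.28 and its adjusted p was 0.043, because the p of another pair then fell.

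In the lists, variant deposition had 2 genes higher with the mean over probe sets and 5 and 6 lower after centring and without the trend. H2A.X signalling had 1 higher without probe sets that may match several transcripts and with the mean over probe sets, and 2 and 3 lower after centring and with that mean. Replication-coupled supply had 0 higher without the trend and 0 to 1 with 1 sample left out. The other histone genes had 1 higher without probe sets that may match several transcripts, 0 lower after centring and without the trend, and 0 to 1 lower with 1 sample left out. The counts of centromere partners and proliferation markers stayed within 1.5 times in all settings. The causes of these shifts were not tested. Centring of the arrays moved small differences across the threshold, such as that of H2ax (-0.23 as deposited), and also larger ones. Among the larger, Mre11a (-0.63) and H1f10 (-0.72) lost their call, and H3f3b 1430357_at (1.03) gained one. Dim probe sets near the floor have no reliable order.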
